A study of Mus musculus with 4 samples.

Results

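Intermediately methylated windows are 1-kb stretches of the mouse autosomes whose methylation level over the whole study lay between the extremes. They were chosen by their level: a window needed at least 5 cytosine positions that each library covered by at least 5 reads, and its methylated reads over all reads, both summed over the 4 libraries, had to lie above 20% and at or below 60%. Of 293737 autosomal windows with enough positions, 14541 met the rule, or 4.95%. The other windows fell into a low class of at most 20% (4420 windows, 1.5%), a partly high class above 60% and up to 80% (46422 windows, 15.8%) and a high class above 80% (228354 windows, 77.7%).

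The DNA came from CD4+ T cells of the spleen. The mice were NOD, which become diabetic by autoimmunity on their own. The DNA was read by whole-genome bisulfite sequencing, in which unmethylated cytosines read as thymine. From the age of 6 weeks the mice were given weekly PBS, or OX40L and Jagged-1 proteins together, for 3 weeks, and cells were sorted 1 week after the last dose, at 10 weeks. OX40L binds OX40, a costimulatory receptor on T cells, and Jagged-1 binds Notch receptors. Sorting gave CD4+CD25- effector T cells (Teff) and CD4+CD25hi regulatory T cells (Treg), so each cell type was sampled with PBS and with OX40L-JAG1, as the mixture is labelled, in 1 library per group. Levels below are given for Teff and then Treg with PBS, followed by Teff and then Treg with OX40L-JAG1. Both sorts take cells by surface CD25 and not by Foxp3, and how many animals gave each library is not in the labels.

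In mammalian cells most CpG sites are methylated, CpG-rich promoters are mostly free of methylation, and enhancers and other bound elements are often partly methylated. Such elements are where methylation tends to differ between cell types. A level between the extremes can come from cells that differ, from parental alleles that differ as at imprinted genes, from neighbouring sites that differ, or from all of these at once. The level of a position is the share of sampled DNA molecules that were methylated, so a mixture of cells and a mixture of alleles cannot be told apart in these data. In T cells, Treg are known for stretches of demethylated DNA at genes such as Foxp3, Ikzf2 and Ctla4.

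The sequences below show the forms the class takes at start sites and at a microRNA locus. They come from RefSeq tables of GRCm38.p6, which is mm10, with promoters given from 250 bases before to 50 bases after a start site. CpG sites that were read in all 4 libraries are in capitals in the promoters, and the seed, bases 2 to 8, is in capitals in the microRNAs. Runx3, a lineage transcription factor of T cells, held the only start site among the windows that differed between cell types in both treatments (chr4:135120395-135120694, plus strand). Coq10a, a coenzyme Q binding protein, had all its measured sites inside the promoter (chr10:128369988-128370287, minus strand). Rplp0, a ribosomal protein gene, and Pax5, the B cell lineage factor, show a promoter of low level inside a window of intermediate level (chr5:115559217-115559516, plus strand, and chr4:44710645-44710944, minus strand). Coq10a was picked after its values were seen. The hairpins of miR-15b (chr3:69009772-69009835, plus strand) and miR-16-2 (chr3:69009902-69009996, plus strand) lie in the same window, and their 5p products share a seed.
Runx3 promoter: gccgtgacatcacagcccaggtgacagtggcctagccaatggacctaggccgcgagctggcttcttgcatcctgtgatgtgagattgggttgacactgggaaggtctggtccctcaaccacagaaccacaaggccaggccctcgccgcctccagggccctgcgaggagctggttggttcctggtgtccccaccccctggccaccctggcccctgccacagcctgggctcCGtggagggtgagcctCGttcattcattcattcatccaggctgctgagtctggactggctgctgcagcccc
Coq10a promoter: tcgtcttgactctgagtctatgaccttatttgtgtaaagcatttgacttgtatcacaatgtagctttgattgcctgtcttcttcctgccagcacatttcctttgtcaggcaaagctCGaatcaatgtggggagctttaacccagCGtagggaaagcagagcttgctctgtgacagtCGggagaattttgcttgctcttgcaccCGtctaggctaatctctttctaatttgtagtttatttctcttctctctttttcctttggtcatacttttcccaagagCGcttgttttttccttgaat
Rplp0 promoter: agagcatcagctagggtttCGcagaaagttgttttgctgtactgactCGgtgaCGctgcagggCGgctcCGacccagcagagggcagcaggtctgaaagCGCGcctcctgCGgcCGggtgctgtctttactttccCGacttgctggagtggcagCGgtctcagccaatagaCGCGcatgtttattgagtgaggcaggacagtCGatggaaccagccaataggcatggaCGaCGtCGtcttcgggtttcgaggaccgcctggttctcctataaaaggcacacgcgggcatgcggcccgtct
Pax5 promoter: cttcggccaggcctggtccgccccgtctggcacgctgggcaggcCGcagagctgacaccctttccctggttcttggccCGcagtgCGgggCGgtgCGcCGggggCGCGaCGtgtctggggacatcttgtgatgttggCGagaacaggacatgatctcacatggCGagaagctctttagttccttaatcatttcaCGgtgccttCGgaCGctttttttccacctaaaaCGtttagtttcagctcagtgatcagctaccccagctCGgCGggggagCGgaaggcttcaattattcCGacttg
mmu-miR-15b-5p: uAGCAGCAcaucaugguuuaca
mmu-miR-16-5p: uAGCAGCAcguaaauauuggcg

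The promoter sites printed above were read apart from the rest of their windows. In the Runx3 promoter the 2 measured sites held 0% methylated reads in 3 libraries and 6.25% in OX40L-JAG1 Treg, from 11 to 17 reads a library. The Rplp0 promoter, with 17 measured sites, stood at 6.32% in Teff and 3.24% in Treg with PBS, and 3.83% and 2.44% with OX40L-JAG1. Its whole window stood at 37.0%, 22.0%, 22.6% and 36.0% in the same order. The Pax5 promoter, with 19 measured sites, stood at 16.4%, 14.9%, 18.3% and 18.5%, and its window at 38.0%, 32.1%, 37.2% and 37.8%. In these 3 windows the sites around the start were less methylated than the rest of the window in every library. Coq10a differed, since its promoter itself was intermediate: 29.0% in Teff and 73.5% in Treg with PBS, and 73.9% and 59.4% with OX40L-JAG1, from 32 to 69 reads.

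Start sites followed the same pattern more widely. A RefSeq start site lay in 506 member windows, with 579 promoter entries of 531 genes. Where at least 3 positions fell in the promoter and at least 2 outside it, in 155 windows, the promoter was at or below 20% in 85 (54.8%), above 80% in 5 and between these in 65. The median level was 16.1% in the promoter and 48.6% in the rest of the window, and the promoter was the lower of the pair in 127 of the 155. The rule keeps the pooled level of a member above 20%. In the 85 windows with a promoter at or below 20%, the rest of the window therefore had to be higher. With 1 promoter taken per member window, the one with the most measured positions, the median was 11 CpG sites in 300 bases. All autosomal entries had a median of 7, but without that pick and without any need for measured positions. Both steps favour promoters with many CpG sites, so these medians do not compare like with like. The table has no entry for 1 autosome, so start-site values are for the other 18.

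Most windows of the genome were far more methylated than the members, and the class was drawn from the broad slope between the extremes, as the plot of windows by level shows. The rule fixed the pooled level, so the levels here describe the class and are not tested. Members had a median level of 49.0% in Teff and 49.1% in Treg with PBS, and 46.6% and 47.3% with OX40L-JAG1. Within the class, members were more numerous at higher levels: 1727 lay above 20% and up to 30%, 2484 up to 40%, 3728 up to 50% and 6602 up to 60%. A member window held a median of 6 positions and 338 reads in all, with 107 in Teff and 79 in Treg with PBS, and 86 and 67 with OX40L-JAG1. A read counts once at every position it covers, so fewer molecules stand behind these numbers, and the intervals given below cover counting error only.

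**Figure D1:**
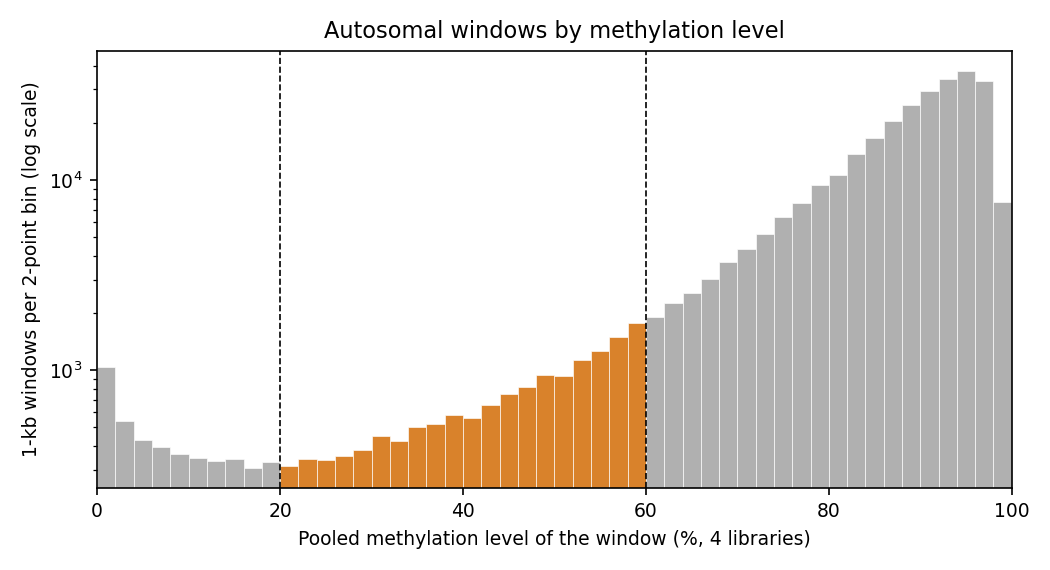
Number of autosomal 1-kb windows (log scale) in 2-point bins of the pooled methylation level (%, 4 libraries summed). Orange bars between the dashed lines at 20% and 60% are the 14541 members, and grey bars are the other windows, most of which lie above 80%.

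The bounds cut through a continuous distribution. The last window outside the lower bound stood at 20% and the first inside at 20.022%, and at the upper bound the values were 60% inside and 60.005% outside. Within 1 point of the lower bound lay 140 members and 156 windows of the low class, and within 1 point of the upper bound 906 members and 861 partly high windows. A window at Pag1, an adaptor protein of T cell receptor signalling (chr3:9826001-9827000), stood just inside the lower bound with 20.4%, 17.5%, 25% and 17.0%. At Nubp1, just outside (chr16:10412001-10413000), the levels were 21.8%, 26.2%, 15.9% and 16.7%. At the upper bound Mef2c, a transcription factor gene (chr13:83574001-83575000), was inside with 54.3%, 45.2%, 67.6% and 74.1%, and Dab1 (chr4:104463001-104464000) outside with 63.2%, 63.9%, 55.7% and 55.4%. In each of these 4 windows some libraries lay above the bound and some below it.

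An intermediate window was seldom a stretch of evenly intermediate sites. Over all members, 29.8% of positions were at or below 20%, 45.4% lay between 20% and 80%, and 24.9% were above 80%, each pooled over the 4 libraries. In the high class 88.7% of positions were above 80%, and in the low class 89.1% were at or below 20%. The median standard deviation among the positions of a window was 33.6 points in members, 24.0 in partly high, 6.68 in high and 6.99 in low windows.

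These forms were told apart by the pooled levels of the positions. In 3815 members (26.2%) at least 2 of every 3 positions were between 20% and 80%, a form called graded here. Another 5808 (39.9%) held low and high positions with a single change from one to the other along the window, called a step, and 3028 (20.8%) held low and high positions in mixed order. The remaining 1890 (13%) fitted none of these forms. A position without a single methylated read in any library occurred in 6186 members (42.5%), against 77.9% of low, 23.0% of partly high and 1.92% of high windows. A cytosine that reads as thymine in the NOD genome would look the same, and its part was not tested. Leaving out all positions without a methylated read made the class smaller, with the count given at the end.

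Members lay nearer to start sites than most of the genome, but not as near as low windows. A gene body held 53.1% of members, another 12.5% lay within 5 kb of a gene and 34.4% lay farther away, while 77.4% of low, 43.0% of partly high and 51.3% of high windows were in a gene body. Start sites lay in 3.60% of members, 19.8% of low, 0.845% of partly high and 0.528% of high windows. The median distance to a start site was 27.5 kb for members, 3.41 kb for low, 51.5 kb for partly high and 44.6 kb for high windows. Within the class the share with a start site was smaller at higher levels, from 9.01% of members up to 30% to 1.67% of those above 50%. The gene table gives no exons, so exons, introns and untranslated regions were not told apart.

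Most windows next to a member had too few positions to be measured, so a member counted as single may adjoin an unmeasured window. Of 5236 adjacent windows that were measured next to a member, 50.8% were high, 23.9% partly high, 16.6% intermediate and 8.75% low, whereas next to high windows 3.06% were intermediate. Single windows numbered 13697, and 392 runs had 2 members, 14 had 3, 3 had 4 and 1 had 6. The run of 6 was the ribosomal RNA gene Rn18s-rs5 with its surroundings (chr17:39843001-39849000), with 1197 positions and 950760 reads, at 26.6% in Teff and 25.7% in Treg with PBS, and 25.8% and 25.6% with OX40L-JAG1. Ribosomal RNA genes are repeated many times in the genome, so this level is an average over copies. Among the runs of 4 were those at Sp110 and Sp140, which encode nuclear body proteins of immune cells (chr1:85597001-85601000; 48.9%, 54.6%, 43.7% and 40.2%), and at Gm21978 (chr4:145559001-145563000; 46.0%, 45.7%, 45% and 44.1%). A run of 3 in Ikzf2 (chr1:69655001-69658000) stood at 59.7% in Teff and 21.5% in Treg with PBS, and 60.1% and 11.4% with OX40L-JAG1.

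Members were spread over many genes. Of 17666 protein-coding genes with a tested window, 5479 (31.0%) had a member in the body or within 5 kb, 1563 had at least 2 and 169 at least 5. Among the leaders by number were long genes best known from the nervous system and other tissues: Pcdh9, a protocadherin, with 23 of 123 tested windows, Nrg1, a neuregulin, with 20 of 91, Lrp1b, a lipoprotein receptor relative, with 20 of 266, Sgcz, a sarcoglycan, with 17 of 78 and Erbb4, a neuregulin receptor, with 17 of 90. The immunoglobulin kappa locus Igk, whose segments are near copies of each other, had 26 of 98. None of these had a member that was called in any comparison, while 5.03% of all members were. Ikzf2, with 10 members among 43 tested windows, had 9 that were called. Prkcq, protein kinase C theta of T cell receptor signalling, had 9 of 23, with 3 called.

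Depth and overall level differed between the libraries. Listed reads ran from 103584075 in OX40L-JAG1 Treg to 208402911 in PBS Teff. The level over all shared autosomal positions was 85.3% in Teff and 85% in Treg with PBS, and 81.7% and 82.2% with OX40L-JAG1. Methylated reads on the mitochondrial genome, a reading of incomplete conversion, were 0.619% to 0.712%. At the marker loci, the T cell genes spread widely: Cd3g and Cd3e of the receptor complex stood at 8.81% to 53.1% over their tested windows, the kinase gene Lck at 40.7% to 50.4%, Cd247 at 57.1% to 71.1% and Cd4, a marker of both sorts, at 70.9% to 81.0%. The B cell genes Ms4a1 and Blk stood at 86.1% to 96.5%, while Cd79a, Cd79b and Pax5 stood at 35.3% to 69.9%. The CD8 and natural killer cell genes Cd8a, Cd8b1, Klrk1 and Ncr1 stood at 79.8% to 94.7% and Eomes at 19.5% to 27.5%, and the myeloid genes Csf1r, Itgam, Cebpa and Cd14 at 82.9% to 97.1% with Spi1 at 68.3% to 78.8%. Both Treg libraries were below the Teff library of the same treatment in all 3 tested Foxp3 windows, which lie on the X chromosome and so outside the class, and the widest gap was at a window with 94.6% in Teff and 41.0% in Treg with PBS, and 94.3% and 46.5% with OX40L-JAG1. The part that other cells in the sorts had in any result was not tested.

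Treg and Teff libraries were called different at members more often than at other windows, in both directions. Methylated and unmethylated reads of 2 libraries were set against each other by a two-sided Fisher's exact test, and a window was called when it gave a Benjamini-Hochberg adjusted p under 0.05 over all 314114 nuclear windows and the levels differed by at least 20 percentage points. In the PBS pair 410 members were called (2.82%, against 0.280% of all tested windows), of which 213 were lower (against 0.165% of all tested windows) and 197 higher in Treg (against 0.115%). In the OX40L-JAG1 pair 160 were called (1.10%, against 0.114%), 73 lower (0.0589%) and 87 higher (0.0548%). Such a test compares 2 libraries and not 2 kinds of cell, since no group had a replicate. The 2 pairs share no library, so each makes the contrast in other libraries. Neighbouring positions share reads, and with all counts divided by 3 the calls were 51 lower and 26 higher with PBS, 11 and 2 with OX40L-JAG1.

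Between the classes the shares differed widely. In the PBS pair 0.317% of low, 0.799% of partly high and 0.0315% of high windows were called, against 0.136%, 0.289% and 0.0223% with OX40L-JAG1. Among windows with 300 to 600 reads in total the share was 3.10% of members and 0.0326% of high windows with PBS, and 1.05% and 0.0338% with OX40L-JAG1. The members, which were 4.95% of autosomal windows, made up 410 of the 867 autosomal calls of the PBS pair (47.3%) and 160 of 351 in the OX40L-JAG1 pair (45.6%). A pooled level near the middle leaves room for a large difference in either direction, and a window at 90% in one cell type and 10% in the other falls in the class by construction. These shares are therefore partly set by the rule.

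Classes drawn from the libraries not compared avoid choosing windows by the reads compared, though low and high windows still have less room for a difference. A window that differs widely between cell types in those libraries also averages to an intermediate level. The intermediate shares therefore remain partly set by the rule. When the class came from the OX40L-JAG1 pair alone, 2.53% of the intermediate windows were called in the PBS pair, against 0.762% of low, 0.543% of partly high and 0.0407% of high windows. With the class drawn from the PBS pair, 1.07% were called in the OX40L-JAG1 pair, against 0.331%, 0.313% and 0.0299%. The intermediate windows of these classes numbered 16824 and 13458. Of their calls, 268 were lower and 158 higher in PBS Treg, while 56 were lower and 88 higher in OX40L-JAG1 Treg. The direction that was the more frequent thus differed between the pairs.

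**Figure D2:**
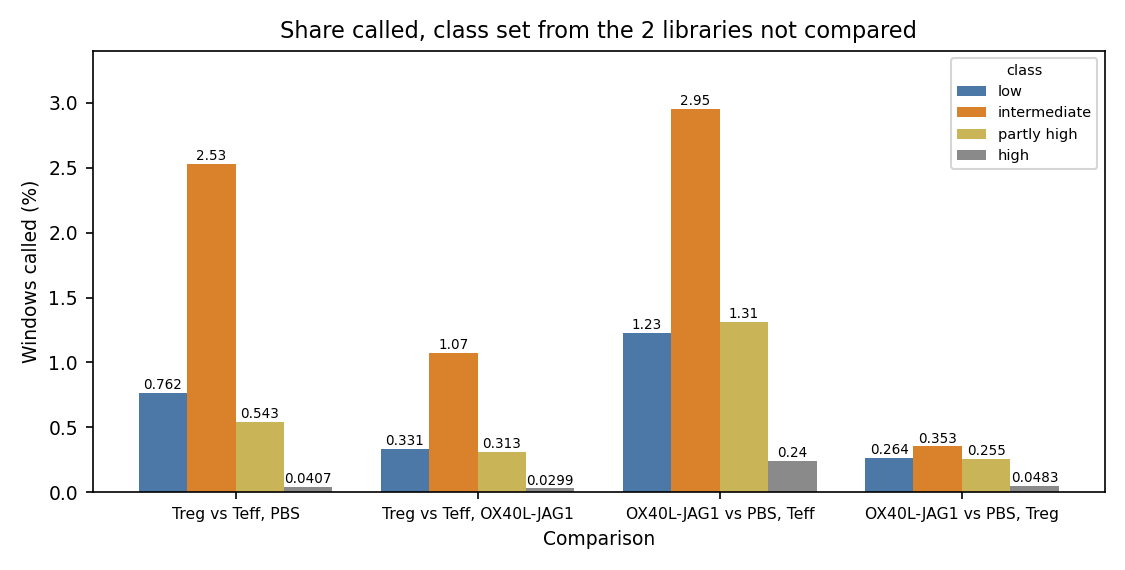
Percent of autosomal windows called in each comparison of 2 libraries, by class, with the class set from the 2 libraries that the comparison does not use. The intermediate class (orange) has the highest share in all 4 comparisons, from 0.353% to 2.95%. Windows far apart in the libraries that set the class average to an intermediate level, so its share is partly set by the rule.

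Windows called in one pair mostly leaned the same way in the other. Of the 213 members lower in PBS Treg, 196 had a lower level in OX40L-JAG1 Treg too, with a median difference of -18.9 points there. Of the 197 higher in PBS Treg, 184 were higher in OX40L-JAG1 Treg, with a median of 17.2 points. Across all members the differences of the pairs had a Pearson correlation of 0.35, given as a description over windows, which are not replicates. For high windows it was 0.036. Levels of 2 libraries carry counting error of several points, and with at least 200 reads in each library the correlation was 0.57 over 1404 members and 0.13 over 22893 high windows. At that depth partly high windows had 0.41 and low windows 0.42.

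**Figure D3:**
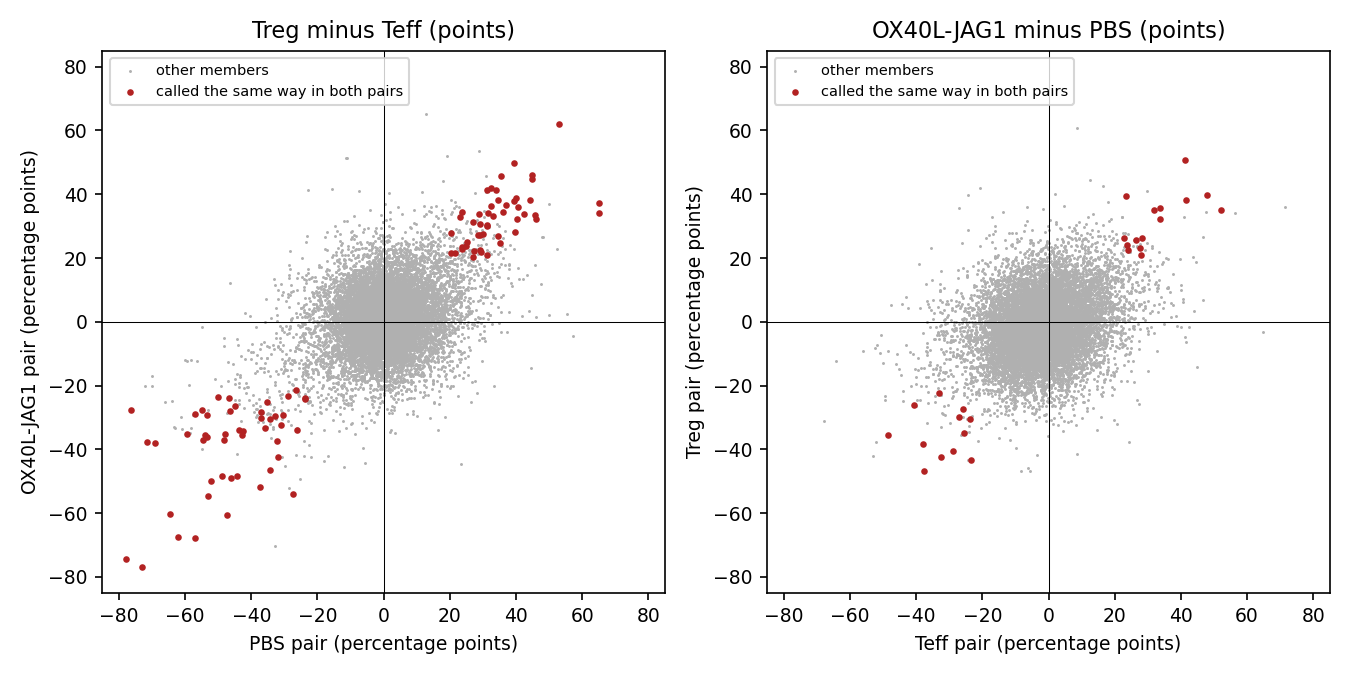
Differences in methylation level (percentage points) of each member window. Left, Treg minus Teff in the PBS pair (x axis) and the OX40L-JAG1 pair (y axis), and right, OX40L-JAG1 minus PBS in Teff (x axis) and Treg (y axis), with windows called the same way in both pairs in red: 97 for cell type and 27 for treatment.

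In both pairs 48 members were called lower in Treg (0.0337% of all tested windows were) and 49 higher (0.0223%). With all counts divided by 3 the counts were 10 and 2, and with a minimum of 10 reads 22 and 28. The 48 and 49 made up 45.7% of the 105 autosomal windows lower in both and 70.0% of the 70 higher in both. The lower set had median levels of 72.4% in Teff and 25.2% in Treg with PBS, and 56.1% and 15.1% with OX40L-JAG1. The higher set ran the other way, with 24.5%, 61.7%, 36.4% and 70.0%. Gene bodies held 34 windows of each set, and 29 and 37 genes were at or near them.

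Within these windows, which were chosen for their differences in both pairs, most positions shared the direction of the window, but a minority of windows did so at every position. Of 375 positions in the lower set, 316 (84.3%) had a lower level in Treg in each pair, and in 21 windows this held at every position. Of 344 positions in the higher set, 285 (82.8%) were higher in both pairs, with every position in 14 windows. In the lower set 58.4% of positions were at or below 20% in Treg, pooled over its libraries, and 9.33% in Teff. In the higher set 39.0% were at or below 20% in Teff and 7.85% in Treg. Graded windows held 75 of the 97, steps 9, mixed windows 2 and other windows 11, but a window that differs between cell types becomes graded once its libraries are pooled.

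Ikzf2, which encodes the Treg transcription factor Helios, led the lower set with 8 windows. The window at chr1:69676001-69677000 stood at 84.0% (42 of 50 reads) in Teff and 6.00% (3 of 50) in Treg with PBS, and 83.6% (51 of 61) and 9.30% (4 of 43) with OX40L-JAG1. Treg was lower by -78.0 points in the PBS pair, with a 95% Newcombe interval from -86.6 to -61.8 (Fisher's exact test, adjusted p = 1.08e-12). In the OX40L-JAG1 pair the difference was -74.3 points, from -83.5 to -57.7 (Fisher's exact test, adjusted p = 8.56e-11). Each of its 6 positions was at or below 25% in both Treg libraries and at or above 66.7% in both Teff libraries, so the ranges did not overlap. The next window by size, chr1:69674001-69675000, read 93.6%, 20.5%, 100% and 23.1% in the same order. Farther off in the same gene, the window at chr1:69549001-69550000 read 82.9%, 20.8%, 73.5% and 6.06%. Treatment differences in these 3 windows ran from -14.7 to 6.38 points, and none was called.

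The locus of miR-15b and miR-16-2, whose seeds are printed above and which are known to hold back cell cycle and survival genes, lay inside the gene Smc4, a condensin subunit. The window at chr3:69009001-69010000 stood at 58.2% (32 of 55 reads) in Teff and 6.06% (4 of 66) in Treg with PBS, and 51.8% (43 of 83) and 1.82% (1 of 55) with OX40L-JAG1. The differences of -52.1 and -50.0 points had intervals from -64.7 to -36.5 and from -60.5 to -36.8, with adjusted p = 2.72e-07 and 1.28e-07 (Fisher's exact test). Its 7 positions ran from 0% to 14.3% in PBS Treg and from 0% to 10.0% in OX40L-JAG1 Treg. In PBS Teff they ran from 0% to 100%, with the lowest at 587 bases into the window and the highest near the end, in miR-16-2. The gap between the cell types was smallest at 587 bases in both pairs, and in the PBS pair the position at 537 bases, on 5 and 7 reads, was the next smallest. Of 78 hairpins that start in a tested autosomal window, 9 started in 8 member windows.

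Other windows of the lower set belong to genes of immune regulation and of general function. Tigit, an inhibitory receptor of Treg and activated T cells (chr16:43628001-43629000), read 94.5%, 25.4%, 53.5% and 15.4%. Ikzf4, which encodes the Helios relative Eos (chr10:128637001-128638000), read 42.4%, 11.5%, 41.5% and 9.05% from 475 to 786 reads a library. Morrbid, a long noncoding RNA gene known from the control of myeloid cell survival (chr2:128379001-128380000), read 90.3%, 44.1%, 63.1% and 14.2% and was called in all 4 comparisons. The set also held Atxn7l1 (84.4%, 20%, 67.4% and 7.04%), Phtf2 (67.6%, 10.7%, 76.6% and 8.75%) and Sdhaf1, an assembly factor of succinate dehydrogenase (80%, 26.9%, 67.6% and 12.8%). In all 6 windows both Treg libraries lay below both Teff libraries. The set also held 3 windows at Rhoh, a small GTPase of T cell receptor signalling, which were picked after the values were seen.

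The higher set, less methylated in Teff, was led by Pced1b and Emb among the windows with a gene. Emb encodes embigin, a partner of lactate transporters, and its window at chr13:117222001-117223000 stood at 23.5% (80 of 340 reads) in Teff and 68.4% (221 of 323) in Treg with PBS, and 28.8% (70 of 243) and 75% (174 of 232) with OX40L-JAG1. Treg was higher by 44.9 points (interval 37.8 to 51.3) and 46.2 points (37.8 to 53.6), with adjusted p = 1.05e-27 and 7.35e-20 (Fisher's exact test). Pced1b (chr15:97377001-97378000) read 23.7%, 76.7%, 27.3% and 89.3% on 28 to 59 reads a library. Its intervals were wider, from 34.0 to 66.6 and from 38.4 to 76.1 points.

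Several genes of naive and conventional T cells were in that set. Tcf7, which encodes the factor TCF-1 (chr11:52271001-52272000), stood at 6.99% (16 of 229 reads) in Teff and 41.7% (65 of 156) in Treg with PBS, and 29.7% (47 of 158) and 67.9% (76 of 112) with OX40L-JAG1. It was called in all 4 comparisons, with Treg higher by 34.7 and 38.1 points and OX40L-JAG1 higher by 22.8 points in Teff and 26.2 in Treg. Lef1, its relative (chr3:131136001-131137000), read 28.2%, 65.1%, 44.4% and 81.1%. Satb1, a chromatin organiser (chr17:51822001-51823000), read 14.8%, 59.7%, 36.8% and 81.4%. Bach2, a repressor of effector genes (chr4:32303001-32304000), read 31.5%, 62.9%, 44.3% and 78.5%. In each of these 4 windows the Treg library lay above the Teff library of the same treatment, and the OX40L-JAG1 library above that cell type's PBS library. The treatment difference passed the test at Tcf7 alone: adjusted p in Teff and Treg was 0.268 and 0.566 at Lef1, 0.0988 and 0.396 at Satb1, and 0.120 and 0.241 at Bach2 (Fisher's exact test).

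Receptor signalling genes followed in the higher set. Themis, a signalling protein of thymocytes (chr10:28674001-28675000), read 34.5%, 65.6%, 28.8% and 70.0%. Rgs3, a regulator of G protein signalling (chr4:62674001-62675000), read 23.4%, 62.7%, 35.4% and 73.5% over 20 positions. The Runx3 window (chr4:135120001-135121000), whose start site is printed above, read 14.8%, 44.9%, 23.1% and 50.6%, with adjusted p = 2.78e-08 and 0.00207 (Fisher's exact test). Inside it the level climbed away from the start site: at 858 bases into the window it was 39.4%, 76.5%, 47.4% and 73.3%, while the position at 625 bases was at 0% in all libraries. The cell type gap at Runx3 was thus widest downstream of the printed sequence, whose sites had few reads.

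**Figure D4:**
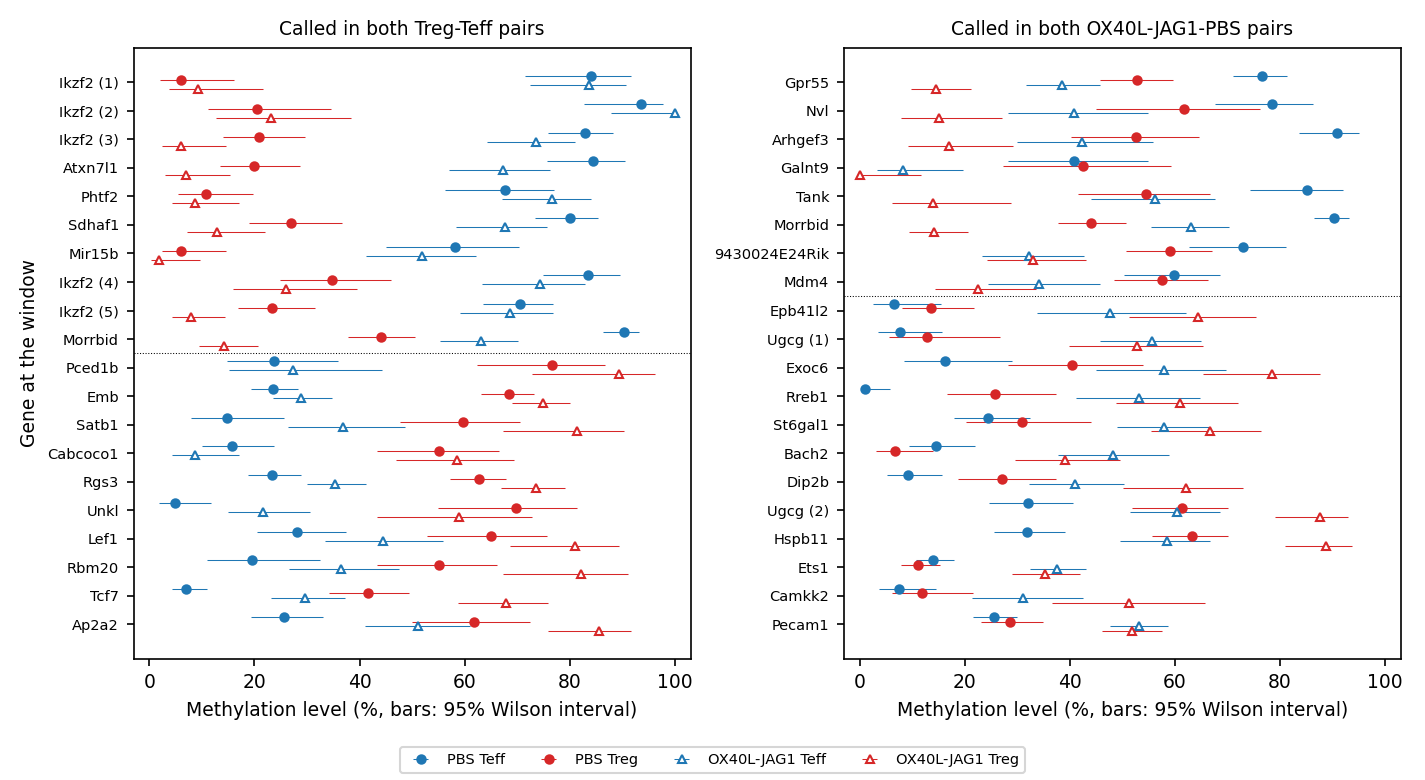
Methylation level (%) of member windows in the 4 libraries, with bars for 95% Wilson intervals. Left, the leading windows called in both Treg-Teff pairs, lower in Treg above the dotted line and higher below it, and right, those called in both OX40L-JAG1-PBS pairs, lower above the line and higher below it. Circles are PBS, triangles OX40L-JAG1, blue Teff and red Treg. Windows of the same gene are numbered in the order of the ranking.

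The gene lists showed how these windows fell by function. Among 24 Treg signature genes with a tested window, 12 had a member. Of their 22 members, 11 were lower and 0 higher in Treg in each pair, with medians of -31.4 and -26.5 points, against -0.157 and 0.435 points over all tested windows. Ikzf2 gave 8 of the 11 in the PBS pair and 9 in the other, and Tigit and Ikzf4 gave 1 in each, so the list was carried by few genes. Rgs1, a regulator of chemokine receptor signalling, gave the last of the PBS pair.

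For naive and conventional T cell genes, 15 of 20 had a member. Of their 44 members, 10 were higher and 2 lower in PBS Treg, and 7 were higher and 0 lower in OX40L-JAG1 Treg, with medians of 1.81 and 6.87 points. Satb1 gave 4 of the 10, Lef1 and Themis 2 each, and Tcf7 and Bach2 1 each. Both lower windows lay in Il6st, the shared receptor chain of the interleukin-6 family, of which chr13:112471001-112472000 read 85.1%, 26.5%, 73.3% and 38.5%. Il6st thus ran against the other genes of its list.

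T cell receptor genes were the list most often in the class: 18 of 19 had a member, and members were 38 of 116 tested windows (32.8%), against 5.37% for protein-coding genes as a whole. In the PBS pair 1 member was lower and 3 were higher, and in the other pair 0 and 5. Cd3e, a chain of the receptor complex (chr9:44999001-45000000), read 14.6%, 38.5%, 38.5% and 53.3% on 749 to 1064 reads a library. It was called higher in PBS Treg than in PBS Teff and higher in OX40L-JAG1 Teff than in PBS Teff, both by 23.9 points. PBS Treg and OX40L-JAG1 Teff therefore stood at the same level there.

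Effector and helper lineage genes had 17 members of 172 tested windows, 1 lower and 2 higher in Treg in either pair. Runx3 and Ccr4, a chemokine receptor gene (chr9:114485001-114486000; 37.5%, 57.7%, 50.3% and 78%), were the higher ones, and Irf4 and Rora were lower in 1 pair each. Checkpoint and exhaustion genes had 13 of 145, 3 lower and 2 higher in PBS Treg and 0 in the other pair. Both higher ones lay in Nr4a2, an orphan nuclear receptor induced on T cell activation (chr2:57110001-57111000; 22.5%, 53.7%, 37.9% and 53.8%). OX40 and NF-kB signalling genes had 10 of 133, with 1 lower and 1 higher in PBS Treg and 1 lower in OX40L-JAG1 Treg. Notch pathway genes had 8 of 188, with 1 lower in PBS Treg, in the coactivator gene Maml3.

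The lists for other cells and for reference genes had too few members for their calls to be read against the 2.82% of all members that were called in the PBS pair and the 1.10% in the OX40L-JAG1 pair. B cell genes had 7 members of 93 tested windows and myeloid genes 2 of 41, with 0 called in any comparison, and CD8 and natural killer genes had 0 of 22. Housekeeping genes had 5 of 29 and germline genes 4 of 98, with 0 called between cell types. DNA methylation machinery had 8 of 85, of which 1, in the maintenance methyltransferase gene Dnmt1 (chr9:20951001-20952000; 24.2%, 76.7%, 14.3% and 37.1%), was higher in PBS Treg on 30 to 35 reads a library. Imprinted genes had 34 of 347, with 1 lower and 1 higher in PBS Treg and 0 in the other pair.

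**Figure D5:**
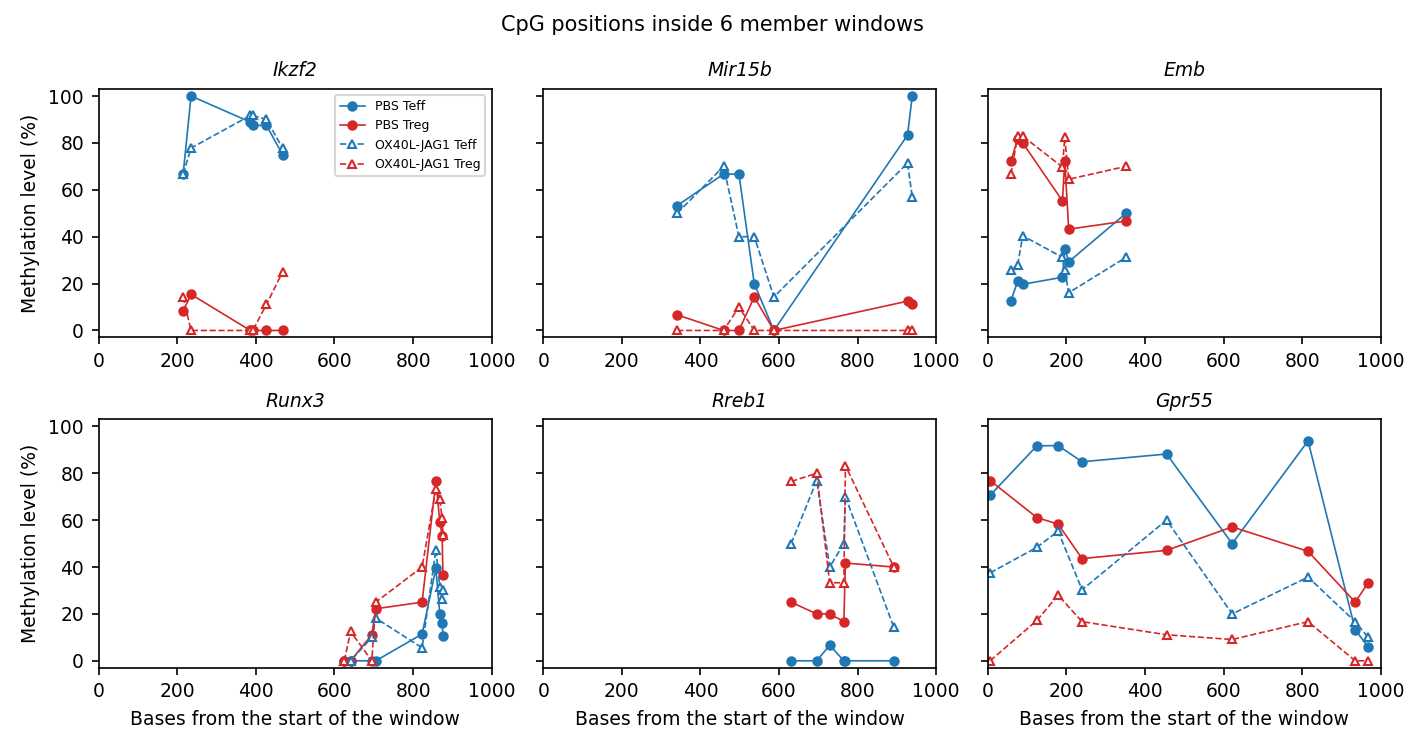
Methylation level (%) at each measured position of 6 member windows against distance from the window start (bases), with circles for PBS, triangles for OX40L-JAG1, blue for Teff and red for Treg. Cell types part at nearly all positions of Ikzf2 and Emb, only away from the start of the measured stretch in Runx3, and treatments part along most of Rreb1 and Gpr55.

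After OX40L-JAG1, members were called in both directions, while windows of higher level were mostly called lower. In Teff 405 members were called (2.79%, against 0.557% of all tested windows), 238 lower (0.469%) and 167 higher (0.0882%) after OX40L-JAG1. In Treg 64 were called (0.440%, against 0.101%), 30 lower (0.0812%) and 34 higher (0.0194%). In Teff the partly high class had 646 lower and 76 higher, and the high class 491 lower and 11 higher. A window near 100% has no room upwards, so these splits are bounded by the level. With all counts divided by 3 the calls were 17 lower and 8 higher in Teff and 0 in Treg. Members made up 405 of 1651 autosomal calls in Teff (24.5%) and 64 of 293 in Treg (21.8%).

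Most windows of the genome had lower levels after OX40L-JAG1, and members less often so. The median difference of members was -2.18 points in Teff and -1.5 in Treg, against -2.82 and -2.15 over all tested windows and -4.69 and -3.66 in partly high windows. In Teff 60.5% of members and 74.8% of high windows were lower after OX40L-JAG1, and in Treg 57.1% and 68.1%. Within the class the median in Teff ran from -0.370 points for members up to 30% to -3.03 for those above 50%. Relative to the median of all tested windows, 213 members were lower and 214 higher in Teff, and 25 lower and 37 higher in Treg. With that shift taken off the size of the difference, but not off the counts tested, the calls in Teff were split evenly.

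With classes drawn from the other cell type's libraries, 2.95% of intermediate windows were called in Teff, against 1.23% of low, 1.31% of partly high and 0.240% of high windows. Lower calls numbered 310 and higher calls 123. In Treg the shares were 0.353%, 0.264%, 0.255% and 0.0483%, with 21 lower and 31 higher among the intermediate windows. In Treg the intermediate class thus stood close to the classes on either side. A window far apart between treatments in the libraries that set the class also averages to an intermediate level. The intermediate shares of both cell types are therefore still partly set by the rule. The PBS Teff library, which enters both the PBS cell type pair and the Teff treatment pair, had the most reads.

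Windows called in 1 cell type mostly leaned the same way in the other, which shares no library with it. Whether both sorts of a treatment came from the same mice is not in the labels. The part of differences between animals or in their handling was not tested. Of the 238 members lower in Teff, 193 were lower in Treg, with a median of -9.50 points there, and of the 167 higher in Teff, 140 were higher in Treg, with a median of 10.5 points. Across all members the 2 treatment differences had a Pearson correlation of 0.27, and across high windows 0.15, as descriptions. With at least 200 reads in each library the correlation was 0.49 for members, 0.48 for partly high, 0.45 for low and 0.41 for high windows. At that depth the classes were thus close together. In both cell types 12 members were called lower (0.0162% of all tested windows were) and 15 higher (0.00573%). With all counts divided by 3 both counts were 0, with a minimum of 10 reads they were 8 and 4, and with windows shifted by 500 bases 18 and 8. The windows of these sets described below therefore rest on the reads as deposited. The 12 and 15 were 24.0% of the 50 autosomal windows lower in both and 83.3% of the 18 higher in both. The lower set had median levels of 75.8% in Teff and 56.0% in Treg with PBS, and 40.6% and 16.9% with OX40L-JAG1, and the higher set 14.0%, 28.6%, 50.2% and 62.1%. All 15 higher windows and 10 of the 12 lower ones were in gene bodies.

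Gpr55, a receptor for lysophosphatidylinositol, led the lower set. Its window at chr1:85953001-85954000 stood at 76.6% (196 of 256 reads) in Teff and 52.8% (105 of 199) in Treg with PBS, and 38.5% (69 of 179) and 14.5% (21 of 145) with OX40L-JAG1. OX40L-JAG1 was lower by -38.0 points in Teff (interval -46.3 to -28.8) and -38.3 in Treg (-46.6 to -28.7), with adjusted p = 5.89e-12 and 4.11e-09 (Fisher's exact test). It was also called lower in Treg in both pairs, so its 4 libraries stood in 4 steps. Morrbid, given above, was the other named lower window that was called in all 4 comparisons.

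The other named lower windows were called between cell types in 1 pair or in neither. Nvl, a nuclear ATPase (chr1:181138001-181139000), read 78.4%, 61.8%, 40.8% and 15.1%, and Arhgef3, a guanine nucleotide exchange factor (chr14:27240001-27241000), read 90.9%, 52.5%, 42.3% and 17.0%. Tank, an adaptor of TRAF proteins in NF-kB signalling (chr2:61579001-61580000), read 85.2%, 54.4%, 56.2% and 13.9% on 36 to 64 reads a library. Galnt9, a glycosyltransferase (chr5:110595001-110596000), read 40.8%, 42.4%, 8.33% and 0%, where 0 of 29 reads were methylated in OX40L-JAG1 Treg. Mdm4, a regulator of p53 (chr1:133024001-133025000), read 59.8%, 57.5%, 34.2% and 22.5%. In each of these 5 windows both OX40L-JAG1 libraries lay below that cell type's PBS library, and at Tank PBS Treg and OX40L-JAG1 Teff stood close together.

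The higher set was led by Epb41l2, a protein of the membrane skeleton, and by Ugcg, glucosylceramide synthase. Epb41l2 (chr10:25404001-25405000) stood at 6.45% (4 of 62 reads) in Teff and 13.5% (13 of 96) in Treg with PBS, and 47.7% (21 of 44) and 64.3% (36 of 56) with OX40L-JAG1. OX40L-JAG1 was higher by 41.3 points in Teff (interval 24.7 to 56.1) and 50.7 in Treg (35.3 to 63.3), with adjusted p = 0.000360 and 3.24e-06 (Fisher's exact test). Ugcg had 2 windows, chr4:59205001-59206000 at 7.59%, 12.8%, 55.6% and 52.7% and chr4:59192001-59193000 at 32.1%, 61.3%, 60.3% and 87.5%. The first differed by treatment alone, with cell type differences of 5.23 and -2.83 points, and the second was called in all 4 comparisons.

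The higher set held windows in 4 transcription factor genes, Rreb1, Bach2, Ets1 and Tcf7, of which Tcf7 is given above. Rreb1, a zinc finger factor (chr13:37873001-37874000), read 1.08% (1 of 93 reads) in Teff and 25.8% (17 of 66) in Treg with PBS, and 53.1% (34 of 64) and 60.9% (39 of 64) with OX40L-JAG1. Of its 6 positions, 5 held no methylated read in PBS Teff, and all 6 were at or above 14.3% in the OX40L-JAG1 libraries. Bach2 (chr4:32281001-32282000) read 14.6%, 6.74%, 48.2% and 39.1%, and Ets1, a factor of lymphoid development (chr9:32668001-32669000), read 14.0%, 11%, 37.6% and 35.2% on 199 to 351 reads a library. At Bach2 and Ets1 the PBS libraries and the OX40L-JAG1 libraries formed groups that did not overlap, with cell type differences of -9.11 to -2.44 points. The Bach2 window is another than the one that differed between cell types. St6gal1, a sialyltransferase (24.4%, 30.9%, 58.0% and 66.7%), and Exoc6, an exocyst subunit (16.3%, 40.4%, 57.9% and 78.4%), were in the set as well.

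Some windows were called in 1 cell type alone, which does not show that the cell types differed. The difference itself, tested in a logistic model, passed in 15 members (0.0108% of all tested windows did), given at the end. In Teff the largest lower calls were at Ccp110, a centriole protein (100%, 56.0%, 32.1% and 25%), and Tnfaip3, the NF-kB inhibitor A20 (chr10:19010001-19011000; 84.4%, 12.2%, 20% and 0%), each on 25 to 41 reads a library. At Tnfaip3 the 3 other libraries were at or below 20%, far below PBS Teff. Among the largest higher calls in Teff were Slc35d3 (2.94%, 15.4%, 74.4% and 51.4%) and Elmo1, a regulator of the actin skeleton (8.82%, 34.8%, 65.3% and 68.8%). In Treg the largest lower calls were at Ext1, a heparan sulfate synthase (59.4%, 53.7%, 51.0% and 6.82%), and Ntsr1 (29.0%, 50%, 23.3% and 3.12%).

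Over all members 1.64% were called lower and 1.15% higher in Teff, and 0.206% and 0.234% in Treg. Of 44 members at naive and conventional T cell genes, 7 were higher and 2 lower in Teff and 4 were higher and 0 lower in Treg, with medians of 4.84 and 9.92 points against -2.82 and -2.15 over all tested windows. Bach2, Ets1, Tcf7 and Satb1 gave the 4 in Treg. The 22 members at Treg signature genes had 1 lower in Teff, the Tigit window, and 0 in Treg. The 13 members at checkpoint genes had 3 lower in Teff and 0 in Treg, and the 17 at effector genes 1 lower in Teff, at Irf4, and 1 higher in Treg, at Ccr4.

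The pathways named by the agents gave 5 windows. OX40 and NF-kB genes had 2 lower and 2 higher in Teff and 1 lower in Treg: Tank and Tnfaip3 were the lower ones, and both higher ones lay in Stat5b, a factor of cytokine signalling (chr11:100828001-100829000; 31.2%, 54.7%, 67.2% and 65.7%). Notch pathway genes had 1 lower in Teff, at Maml3 (76.7%, 37.2%, 43.3% and 20.4%), and 0 in Treg. Their medians were -5.11 and 4.34 points for the first list and -1.19 and -1.87 for the second. T cell receptor genes had 1 lower and 1 higher in each cell type, and imprinted genes 1 higher and housekeeping genes 1 lower in Teff. The OX40 and NF-kB, Notch, T cell receptor, imprinted and housekeeping lists had 10, 8, 38, 34 and 5 members. In B cell, myeloid, germline and DNA methylation machinery genes, with 7, 2, 4 and 8 members, 0 were called by treatment. Of all members 2.79% were called in Teff and 0.440% in Treg. The lists of this paragraph have too few members for their calls to be read against these shares.

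A minority of members stood at nearly the same level in all libraries. All 4 levels lay within 5 points of each other in 1289 members (8.86%), and over all members the median range was 12.3 points, where binomial counting error alone would give 11.1. At least 20 points separated the highest from the lowest library in 19.6% of members, against 11.4% of partly high, 1.42% of high and 3.05% of low windows. The ribosomal RNA windows were the most deeply read of the steady ones, followed among genes by Jarid2, a subunit of Polycomb complexes (26.6%, 24.3%, 27.6% and 27.4% over 66 positions), and Lars2, a mitochondrial leucyl-tRNA synthetase (32.2%, 31.0%, 34.7% and 30.8%). These windows of Jarid2 and Lars2 held 11379 and 11359 reads, against a median of 362 over all tested windows. Whether reads from other copies of the sequence are among them was not tested, so their levels may not be those of a single locus.

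Imprinted genes, which are methylated on the allele of 1 parent, had 34 members, whose pooled level the rule kept between 20% and 60%. Gnas (chr2:174328001-174329000) stood at 47.3% in Teff and 48.4% in Treg with PBS, and 52.8% and 47.8% with OX40L-JAG1. The window shared by Blcap and Nnat (chr2:157560001-157561000) read 51.7%, 50.7%, 52.7% and 47.5%, Magel2 (chr7:62376001-62377000) read 50.9%, 44.4%, 49.9% and 46.7%, and the window of Kcnq1 and Kcnq1ot1 (chr7:143295001-143296000) read 54.7%, 59.5%, 59.2% and 57.8%. Snrpn (chr7:60243001-60244000) was lower, at 36.5%, 33.9%, 37.9% and 34.2%. None of these 5 windows was called in any comparison, but only 5.03% of all members were, so this does not set them apart. Gnas had 5 members, of which 1, another than the window given, was called. The 34 imprinted members had medians of 0.684, 0.848, -1.03 and -1.42 points in the PBS pair, the OX40L-JAG1 pair, Teff and Treg.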

How the data were processed

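Bisulfite reads were trimmed with Trimmomatic and aligned with Bismark to mm10, per the submitters' processing notes. Settings, versions and what was done with duplicate reads are not given in the sources used here. For each position the authors deposited, per the file headers, the counts of methylated reads and of all reads and a level headed as a percentage, whose deposited values are a fraction between 0 and 1, the methylated share of the reads. Every count above 0 in the deposited tables is at least 5, so totals are not the full depth, and the strands of a CpG stand on separate lines. Of 25374149 positions, 4795507 (18.9%) had at least 5 reads in all 4 libraries, with medians of 14 reads in Teff and 10 in Treg with PBS, and 11 and 9 with OX40L-JAG1.

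Reads were summed in 1-kb windows with at least 5 such positions. Each pair of libraries was compared by a two-sided Fisher's exact test with Benjamini-Hochberg adjustment over 314114 windows, called at an adjusted p under 0.05 and a difference of at least 20 points. The difference of the treatment effects between cell types was tested by a logistic model (Wald test, each count plus 0.5). Levels have Wilson and differences Newcombe 95% intervals, which cover counting error only. A share of reads in NOD cells that carry a C-to-T difference from mm10 would read as unmethylated and was not separated. Genes were taken from the RefSeq table of GRCm38.p6, with 5 kb on either side. The scripts were tested on simulated data and ran in Python 3.11.15 with pandas 2.3.3, numpy 2.4.6, scipy 1.17.1 and matplotlib 3.10.9.

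Windows are named by size of difference among those called in both pairs (up to 10 each way for cell type, 6 for treatment, and 5 in each cell type alone), by number of members in a gene, by length of run, by nearness to the bounds, by depth among the steady, and by 14 gene lists: T cell receptor signalling, Treg signature, imprinted, naive and conventional T cell, Notch pathway, effector and helper lineage, housekeeping, checkpoint and exhaustion, B cell, OX40 and NF-kB signalling, germline, CD8 T and NK cell, DNA methylation machinery, and myeloid. Some windows and genes that this rule names are not reported here. The class, the lists and the tests were chosen with earlier results of these data known. Alternatives covered the read minimum, the weighting of libraries, the window start, positions without methylated reads, the independence of reads, the size of difference, a shift shared by all windows, library size and very deep windows.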

Additional observations from a re-analysis of the deposited data

Results flagged for a closer look

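In 15 members the difference between OX40L-JAG1 and PBS in Treg departed from that in Teff (Wald test in a logistic model, adjusted p under 0.05 over all tested windows, of which 0.0108% passed). The value given is the difference in Treg minus that in Teff in percentage points, and each group is 1 library. The windows were picked by this test, after their values were seen. Levels are for Teff and Treg with PBS, then for both with OX40L-JAG1.

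In the first group PBS Teff was the highest library. Cblb, a ubiquitin ligase that restrains T cell activation, had a value of 58.6, with levels of 78.6%, 32.1%, 43.1% and 55.2%. Pdcd1lg2, which encodes the PD-1 ligand PD-L2, had 46.5 (90.6%, 32.2%, 40% and 28.2%), and Cyth3, an exchange factor of ARF proteins, had 53.2 (84.6%, 29.7%, 60.3% and 58.6%). The wide gap between the PBS libraries was narrower or turned with OX40L-JAG1 in these windows. Gm33897 had 32.9 (56.4%, 5.58%, 28.6% and 10.7%), and windows without a gene on chromosomes 13 and 15 had 24.5 (82.7%, 23.1%, 51.9% and 16.8%) and 34.5 (71.2%, 24.1%, 33.2% and 20.6%).

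In other windows PBS Teff was the lowest. Pcyt1a, an enzyme of phosphatidylcholine synthesis, had -35.6 (7.11%, 54.5%, 44.2% and 56.0%), Ahi1, a protein of the ciliary base, had -44.2 (6.35%, 20.2%, 48.9% and 18.6%), and a window without a gene on chromosome 13 had -32.5 (11.7%, 47.2%, 49.2% and 52.3%). Gfm1, a mitochondrial elongation factor, had -42.2 (44.9%, 70.3%, 64.2% and 47.4%), and Zfhx3, a transcription factor gene, had -35.6 (38.9%, 61.9%, 53.4% and 40.8%). In Gfm1 and Zfhx3 Treg was higher than Teff with PBS and lower with OX40L-JAG1.

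Rab3c had 64.0 (58.1%, 35.4%, 33.8% and 75%), 2900079G21Rik 36.5 (68.6%, 39.9%, 48.8% and 56.5%), and Rplp0, whose promoter of low level is printed in the report, 28.5 (37.0%, 22.0%, 22.6% and 36.0%). The Rplp0 value does not describe the whole window, since 16 of its 20 positions were at or below 20% with the libraries pooled. Its promoter sites were low in every library and lowest in OX40L-JAG1 Treg, unlike the window. A window level sums reads over positions. The parts that the other positions and the spread of reads over positions had in the value were not tested. Epg5 had 48.9. PBS Teff also had the most listed reads, and the part of depth was not tested beyond scaling the libraries to the smallest, which gave 8 such members. With all counts divided by 3 there were 0, so none of these windows passed.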

How the results depend on the processing

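The 12 counts and shares were recomputed, giving 80 alternative values: 48 stayed within 1.5 times and 32 did not. No paired analysis was possible because the labels give each group 1 library and so no replicate numbers that could serve as a block, and for the same reason no library could be left out. An additive fit of cell type and treatment over the 4 libraries, with 1 residual degree of freedom, was not run. Order below: members called in the PBS pair, the OX40L-JAG1 pair, Teff and Treg, then members called lower and higher in both cell type pairs and lower and higher in both treatment pairs. With a minimum of 10 reads, which leaves fewer positions, 3114 members had 138, 66, 95 and 28 calls, then 22, 28 and 4 in place of 48, 49 and 15. With all counts divided by 3, which lowers the power of every test, the numbers were 77, 13, 25 and 0, then 10, 2, 0 and 0, with 0 calls of a differing treatment effect and 0.458% and 0.0966% called where the class came from the other pair. A minimum difference of 30 points gave 248, 104, 195 and 31, then 30, 25, 4 and 7. Scaling to the smallest library, chosen after seeing the data, gave 213 in Teff, 4 and 9 in both treatment pairs and 8 differing treatment effects. Shifting the windows by 500 bases gave 8 higher in both treatment pairs. The cause of this last change was not tested. The mean of the 4 levels, centring and leaving out very deep windows moved no count past 1.5 times. Leaving out positions without methylated reads did not either, but it left 10103 members in place of 14541. Of the calls of the windows called in both pairs or largest in 1 cell type, 56 were kept with counts divided by 3 and 225 were lost.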
